A study of Mus musculus with 30 samples.

Results

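The collagen genes of the mouse colon were followed through colitis-associated tumor formation. They were taken as the rows of the deposited count table whose symbol is Col, a number, a and a single digit, which gave 44 of 31023 genes. By the trimer or network their chains build, 11 are fibrillar, 6 are type IV chains of the basement membrane, 3 belong to the zone next to the basement membrane, 6 are type VI chains, 3 are short chain network collagens, 9 are FACITs (collagens that sit on the surface of other fibrils), 4 span the cell membrane and 2 fit none of these. Bulk RNA was sequenced from colon taken on day 56 from male C57BL/6 mice. Their age is given as 8 to 12 weeks, which need not be the age on day 56. The mice were wild type (WT) or Smox-/- (written Smox), which lack spermine oxidase, an enzyme that makes spermidine from spermine. The 30 libraries form 10 groups of 3. In each genotype there was untreated colon, colon of mice that drank 14 mM spermidine, and non-tumor colon after AOM-DSS without or with the same spermidine. AOM-DSS means an injection of 12.5 mg/kg azoxymethane, a carcinogen, followed by 3 rounds of 4% dextran sulfate sodium, a chemical that injures the mucosa, each lasting 5 days and begun on days 5, 26 and 47. The tumor groups were WT tumors after AOM-DSS with spermidine and Smox tumors after AOM-DSS alone, so that between the tumor groups genotype and spermidine cannot be told apart. Library numbers 1 to 3 within a group are names only, and the labels do not say whether tumor and non-tumor tissue came from the same mouse or that the libraries of a group are separate mice, so p values measure the spread between these libraries.

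Collagens are secreted proteins in which 3 alpha chains wind into a triple helix, and each gene encodes a chain. Fibrillar collagens, mostly from fibroblasts, form the load-bearing fibers of the submucosa and the lamina propria, and type IV collagen forms the sheet under the epithelium, around vessels and around muscle cells. Inside the cell prolines and lysines are hydroxylated and the helix is chaperoned, outside it the ends are trimmed and lysyl oxidases crosslink the fibers, and metalloproteinases degrade them. In the colon this matrix is rebuilt after each ulcer, and a remodelled stroma is a known feature of colorectal tumors.

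Library totals ran from 33060607 to 81011304 counts, and collagen genes took 0.0243 to 0.235% of them. Markers of colon epithelium were present in every group, with 10 of 10 markers detected. The Smox gene ranged from 18.6 to 68.7 CPM with the Smox genotype and from 25.1 to 169 CPM with the WT genotype, where CPM is the count scaled to library size by the TMM method. The untreated Smox libraries had 28.7, 36.2 and 27.4 CPM and the untreated WT libraries 26.7, 25.1 and 27.6 CPM, so the gene total does not separate these labels. With spermidine alone Smox libraries had 18.6, 26.6 and 22.8 CPM and WT libraries 48.8, 49.4 and 43.7 CPM, without overlap. After AOM-DSS alone the non-tumor values were 27.6, 26.1 and 35.8 against 48.2, 50.7 and 41.8 CPM, also without overlap. After AOM-DSS with spermidine the non-tumor values overlapped. Smox tumors had 57.7, 68.7 and 44.0 CPM and WT spermidine tumors 127, 123 and 169 CPM. Which exons the deletion removes is not given in the sources used here, and counts from exons outside it check nothing. A pair of libraries stood apart. WT untreated 3 held 9899 CPM of 10 skeletal muscle markers against 30.7 and 38.2 CPM in the other WT untreated libraries, and 21.7% of its counts were mitochondrial. The library labelled Smox AOM-DSS spermidine non-tumor 1 had tumor-like levels of several type IX genes, described below. Comparisons that include either were also fitted without both, and values without them are given beside the results they touch.

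RefSeq holds start sites on GRCm38.p6 for 35 of the 44 genes, with 38 promoter windows. The sequences shown belong to genes that the tumor results turn on: the type IX genes Col9a1 and Col9a2 and the keratinocyte collagen Col17a1, called higher in at least 1 tumor comparison, and the head-to-head pair Col4a5 and Col4a6, called lower in both. All run 5′ to 3′ on the strand of the gene, within the 250 bases before a RefSeq start, and capitals mark the motifs searched for. For Col9a1 (chr1:24177360-24177609, plus strand) the whole stretch is shown, and the TCF/LEF match is on the opposite strand. For Col9a2 (chr4:121039378-121039404, plus strand) only the bases around its TCF/LEF match are shown, because they lie in an annotated exon. For Col17a1 (chr19:47692095-47692292, minus strand), Col4a5 (chrX:141475169-141475384, plus strand) and Col4a6 (chrX:141474077-141474326, minus strand) the bases outside annotated exons are shown.
Col9a1: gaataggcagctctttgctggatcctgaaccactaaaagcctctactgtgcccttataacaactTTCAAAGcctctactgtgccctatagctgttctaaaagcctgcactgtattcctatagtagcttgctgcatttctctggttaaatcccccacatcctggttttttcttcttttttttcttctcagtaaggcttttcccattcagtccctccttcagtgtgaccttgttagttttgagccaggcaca
Col9a2: aggaggaaggCTTTGATcttggaggca
Col17a1: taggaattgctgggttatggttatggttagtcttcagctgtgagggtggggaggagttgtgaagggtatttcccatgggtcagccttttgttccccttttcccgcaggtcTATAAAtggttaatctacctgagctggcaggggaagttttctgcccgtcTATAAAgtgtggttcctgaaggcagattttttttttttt
Col4a5: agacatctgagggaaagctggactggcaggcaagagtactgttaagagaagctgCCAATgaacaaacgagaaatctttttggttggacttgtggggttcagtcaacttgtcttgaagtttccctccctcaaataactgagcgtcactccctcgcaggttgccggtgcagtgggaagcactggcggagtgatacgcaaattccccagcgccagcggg
Col4a6: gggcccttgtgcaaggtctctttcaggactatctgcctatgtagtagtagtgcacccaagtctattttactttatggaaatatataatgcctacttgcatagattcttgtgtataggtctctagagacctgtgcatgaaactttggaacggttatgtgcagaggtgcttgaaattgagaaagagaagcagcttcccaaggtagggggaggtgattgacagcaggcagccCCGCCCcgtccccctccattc

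Known promoter motifs were searched on both strands of these windows and of 32851 mouse windows of the same length, called all windows here. A chromosome that holds none of the collagen genes was left out of them. The TCF/LEF motif CTTTGAA occurred in 10.5% of collagen windows and 4.46% of all windows. Its variant with T as the last letter, CTTTGAT, occurred in 2.63 and 3.21%, and the letters of both cannot match at the same place on a strand. In Col9a1 the match starts 186 bases before the RefSeq start and in Col9a2 178 bases before it. The TATA box, TATAAA, occurred in 13.2% of collagen and 12.4% of all windows and is present as a pair of copies in Col17a1. The CCAAT box, seen in Col4a5, occurred in 34.2 and 33.8%. The GC box, GGGCGG, was in 57.9% of collagen and 32.7% of all windows, and in Col4a6 it lies close to the start on the opposite strand. The SOX motif ACAATGG was in none of the 38 collagen windows and in 3.02% of all. None of the motifs overlap one another in the stretches shown. These matches describe letters and were not tested for binding.

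A few chains supplied most collagen RNA. Per kilobase of exon, the mean level over the 30 libraries was highest for Col3a1 (18.9 CPM per kb), the type III chain of reticular fibers, then Col1a1 (15.4), the main type I chain, Col4a1 (14.6) and Col4a2 (11.1), the common basement membrane chains, Col6a1 (9.52) and Col1a2 (8.05). The ranges over libraries of these genes overlapped widely, for example 21.6 to 296 CPM for Col1a1 and 22.9 to 269 CPM for Col4a1. Without scaling for exon length, the 5 highest genes of each library held between 47.6 and 72.3% of its collagen CPM, and these genes could differ between libraries. Summed over all libraries the 5 highest were Col3a1, Col4a1, Col1a1, Col1a2 and Col4a2, with 62.4%. At the low end, Col2a1, the cartilage fibril chain, was at 0 counts in 15 of 30 libraries. Of the 44 genes, 39 passed the count filter. The others, Col10a1, Col19a1, Col26a1, Col4a3 and Col6a6, had 24 to 125 counts in all 30 libraries together and were not tested.

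The collagen total differed more between libraries of a group than between most groups. Group means ran from 385 ± 71.5 CPM (SD, n = 3) in WT spermidine colon to 1235 ± 70.2 CPM in Smox tumors. Within WT AOM-DSS non-tumor colon the 3 libraries ran from 532 to 1978 CPM, and within Smox AOM-DSS spermidine non-tumor colon from 368 to 2102 CPM, the highest being library 1, which stood apart (the other libraries had 368 and 1128 CPM). Fibrillar genes made up the largest portion of the summed CPM in each of the 30 libraries, as the plot of collagen totals by type shows. They averaged 367 ± 137 CPM in WT untreated colon, 177 ± 41.7 in WT spermidine colon, 598 ± 367 in WT tumors and 597 ± 59.5 in Smox tumors (SD, n = 3 each). In this bulk tissue, fewer cells of a type and less RNA per cell cannot be told apart.

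**Figure D1:**
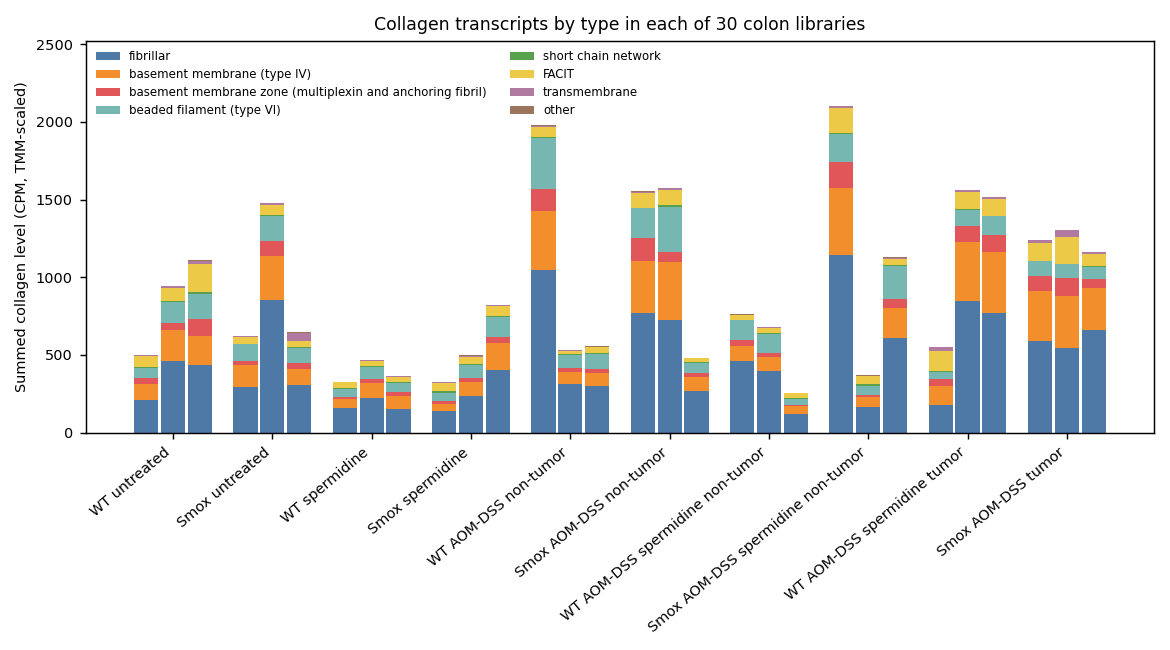
Summed TMM-scaled CPM of the 44 collagen genes (vertical axis) in each of the 30 libraries, 3 bars per group, stacked by collagen type. Totals within a group can differ several fold, as in WT AOM-DSS non-tumor colon (532 to 1978 CPM), while the Smox tumors lie between 1162 and 1302 CPM.

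The interstitial and common basement membrane chains moved together from library to library. Over the 30 libraries, log2 CPM of Col1a1 correlated with that of Col1a2 (Pearson r = 0.95), Col5a2 (0.94), Col5a1 (0.94), Col4a1 (0.94), Col3a1 (0.93) and Col4a2 (0.92). Outside the collagens the 5 genes closest to Col1a1 were Loxl2 (0.97), a lysyl oxidase, Snai1 (0.94), a transcription factor, Adamts12 (0.94), a secreted protease, Lox (0.93), the main collagen crosslinking oxidase, and Cd93 (0.92), an endothelial surface protein. Type VI genes followed less closely, at 0.60 for Col6a1 and 0.81 for Col6a3. Col17a1 (0.33), Col4a5 (-0.19) and Col4a6 (-0.38) had patterns of their own. These values are a description. The libraries share groups and differ in depth, and all genes of a library share its scaling.

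**Figure D2:**
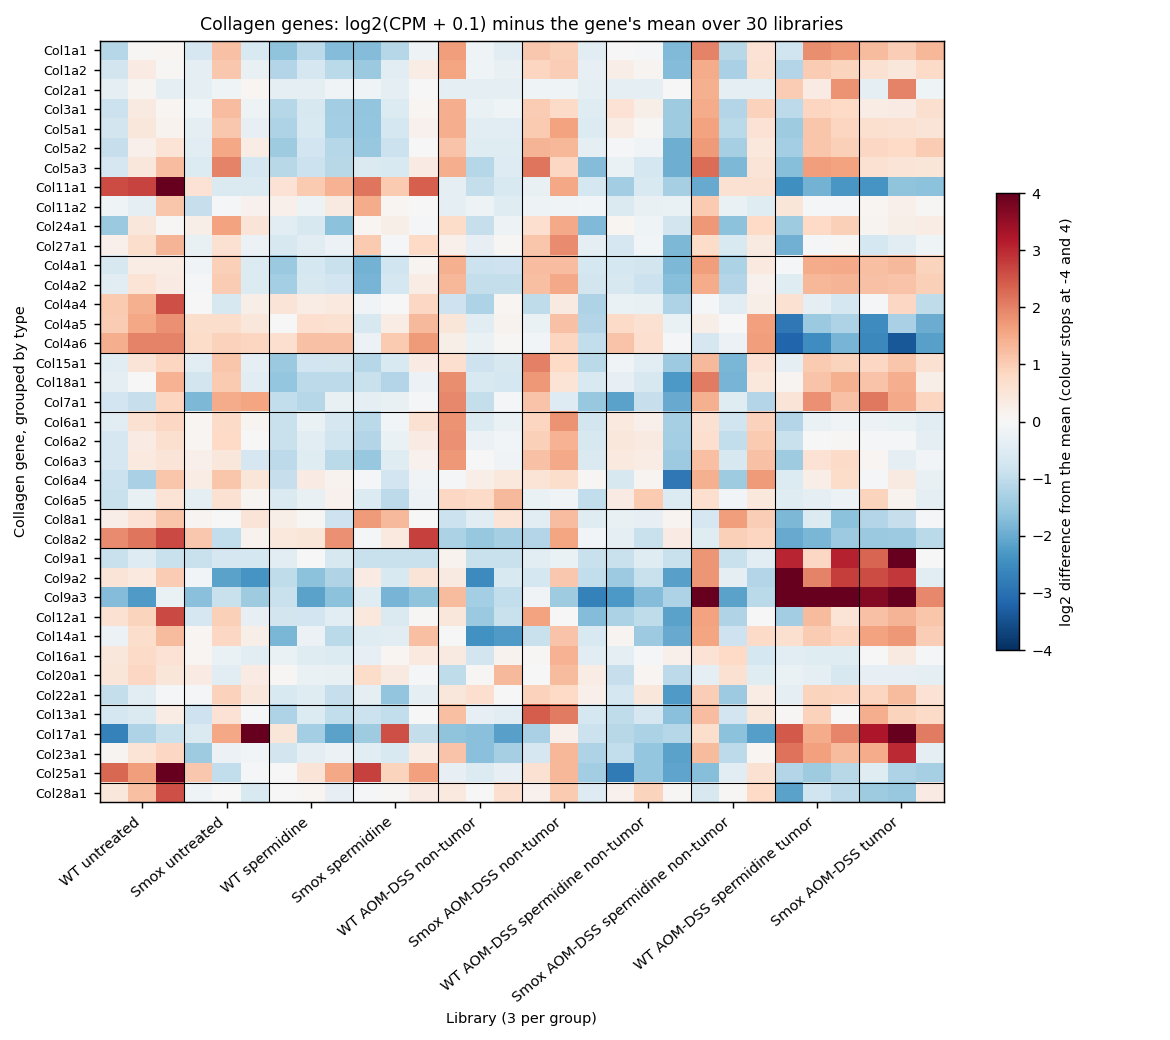
Log2(CPM + 0.1) of each tested collagen gene minus its mean over the 30 libraries, genes in rows by type and libraries in columns by group. Fibrillar and Col4a1/Col4a2 rows change column by column together, while Col4a5 and Col4a6 are low in all 6 tumor libraries. Col9a1, Col9a2, Col9a3 and Col17a1 are high in most tumors, but also in single other libraries such as Smox untreated 3 for Col17a1 (49.0 CPM), and Smox tumor 3 is low for Col9a2 (2.24 CPM).

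Tumor tissue was compared with non-tumor colon of mice with the same genotype and treatment. In WT mice after AOM-DSS with spermidine, 12 of 39 tested collagen genes passed an adjusted p of 0.05 (edgeR quasi-likelihood, Benjamini-Hochberg over 19558 genes). Col9a1, Col9a2, Col9a3, Col17a1, Col7a1, Col23a1, Col4a1 and Col4a2 rose and Col4a5, Col4a6, Col8a2 and Col28a1 fell. That is 30.8% of the tested collagens against 34.4% of all genes in the same comparison (16.9% higher and 17.5% lower), so collagens as a group were not called more often than other genes. The median log2 fold change was 0.95 over the collagens and 0.01 over all genes. Groups did not overlap, with tumors higher, for 14 collagen genes (28.3% of all genes) and, with tumors lower, for 7 (27.3%). In Smox mice after AOM-DSS alone, 8 of 39 passed (20.5% against 24.6% of all genes, 11.4% higher and 13.2% lower). Col9a1, Col9a3 and Col17a1 rose and Col4a5, Col4a6, Col8a2, Col11a1 and Col27a1 fell, with a median of -0.13 against -0.01 over all genes. Groups did not overlap for 4 collagen genes with tumors higher (20.9% of all genes) and 4 with tumors lower (21.5%). Of the called genes, Col9a1, Col9a3, Col17a1, Col4a5, Col4a6 and Col8a2 were called in the same direction in both comparisons, which share no library.

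**Figure D3:**
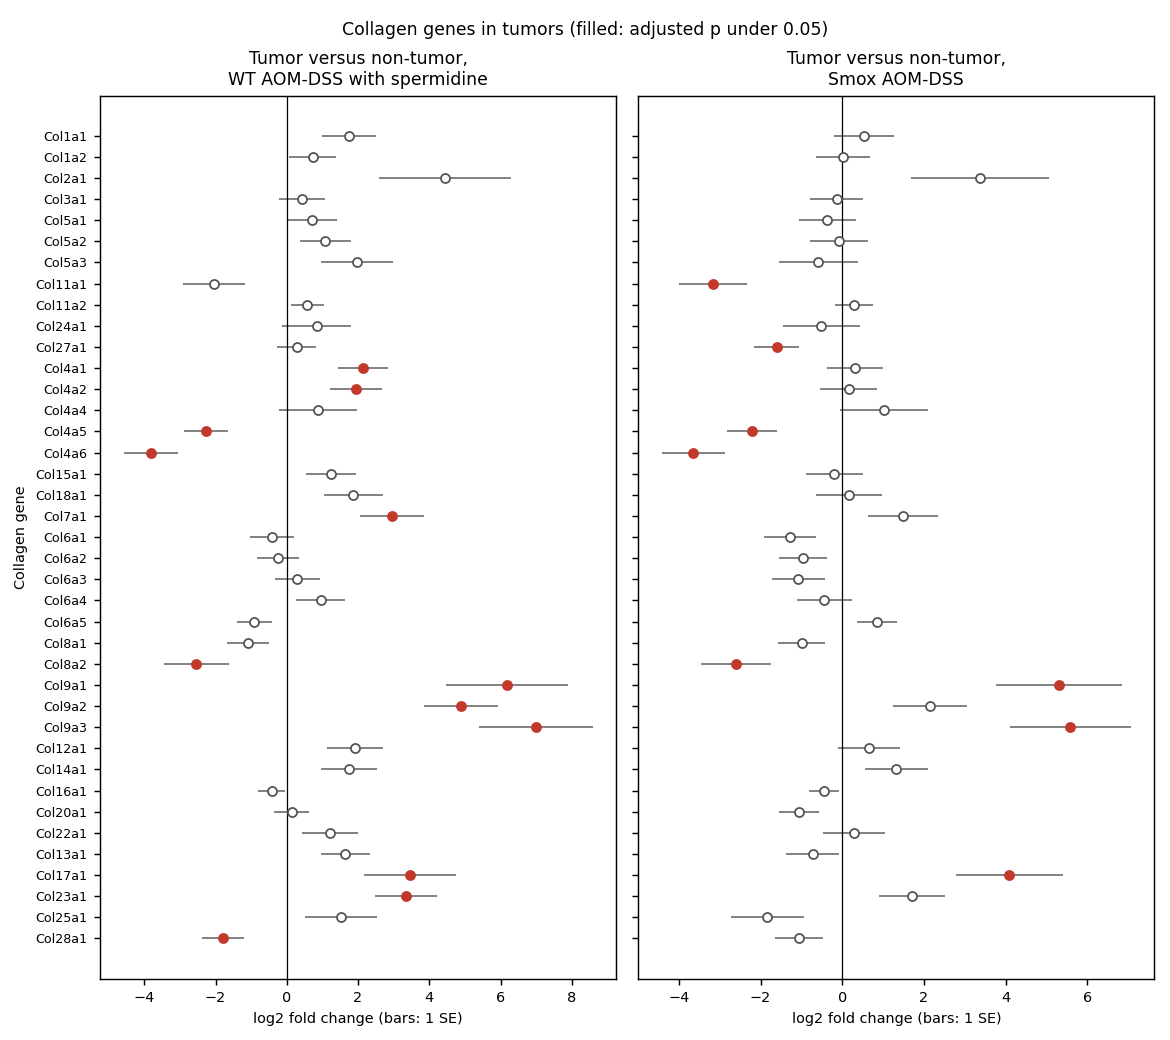
Log2 fold change of tumor over non-tumor colon for the 39 tested collagen genes in WT mice after AOM-DSS with spermidine (left) and Smox mice after AOM-DSS (right). Points are edgeR estimates, bars 1 SE, and filled points passed an adjusted p of 0.05: 12 genes on the left and 8 on the right.

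The tumor and non-tumor samples also differed in their markers of other cell types. The summed level of 10 smooth muscle markers was 1229 to 1565 CPM in WT non-tumor colon and 70.6 to 176 CPM in WT tumors, with 10 of 10 markers lower. In Smox mice it was 1044 to 4820 CPM in non-tumor colon and 123 to 1166 CPM in tumors, and tumor 3 held the 1166 CPM. There 3 of 10 were called lower, and the estimate was below 0 for 10 of 10. Enteric neuron and glia markers were lower for 7 of 10 genes and higher for 1 in WT tumors (16.8 to 35.3 CPM in non-tumor, 23.0 to 38.0 in tumors) and lower for 8 of 10 in Smox tumors (55.1 to 166 against 16.5 to 37.9 CPM). Squamous epithelium markers were higher for 2 of 10 in WT tumors (2.06 to 11.6 against 58.7 to 114 CPM) and for 7 of 10 in Smox tumors (3.58 to 12.6 against 59.9 to 662 CPM). Endothelial markers were higher for 3 of 10 in WT tumors (29.8 to 55.0 against 63.0 to 102 CPM) and for 0 of 10 in Smox tumors (39.7 to 190 against 82.1 to 103 CPM). Of 14 fibroblast markers 2 were higher and 3 lower in WT tumors (498 to 528 against 535 to 772 CPM), and 3 were lower in Smox tumors (650 to 1242 against 569 to 626 CPM). The part of these cell types in the collagen results was not tested.

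Among the fibrillar genes, 0 of 11 were called in WT tumors (34.4% of all genes) and 2 in Smox tumors (24.6% of all genes). With unadjusted p, Col1a1, Col2a1 and Col11a1 of the fibrillar genes were under 0.05 in WT, where 44.5% of all genes were. Col1a1 measured 74.2, 70.5 and 21.6 CPM in WT non-tumor colon and 42.9, 271 and 240 CPM in WT tumors. Tumor 1 lay inside the non-tumor range and the other tumors lay above it (log2 fold change 1.73, SE 0.76, adjusted p 0.0794). Without tumor 1 the same test gave a call, with the lowest adjusted p over libraries left out of 0.0406. In Smox mice Col1a1 measured 157, 144 and 54.9 CPM in non-tumor colon and 179, 148 and 186 CPM in tumors, and the groups overlapped (0.53, SE 0.74, adjusted p 0.628).

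Col3a1 measured 231, 183 and 57.9 CPM in WT non-tumor colon and 75.3, 286 and 273 CPM in tumors (log2 fold change 0.42, adjusted p 0.642 by edgeR). Col1a2, the partner chain of Col1a1, measured 101, 90.8 and 25.2 CPM against 36.7, 169 and 154 CPM (0.72, adjusted p 0.416). Col5a1 and Col5a2, the type V chains that start fibrils, had log2 fold changes of 0.72 and 1.08 in WT and -0.37 and -0.08 in Smox mice, with adjusted p of 0.254 or more. WT tumor 1 was the lowest of the 3 tumors for each of these genes, while tumors 2 and 3 lay close together. Col2a1 had 1 count in WT non-tumor colon and 37 in tumors, a ratio of 31.0 (95% counting interval 5.23 to 1256), and was not called (adjusted p 0.0698).

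Col11a1, a minor chain that limits fibril width, fell in Smox tumors. It measured 0.493, 2.04 and 0.345 CPM in non-tumor colon and 0.044, 0.139 and 0.134 CPM in tumors, without overlap (log2 fold change -3.17, SE 0.83, adjusted p 0.0122 by edgeR). In WT it measured 0.180, 0.375 and 0.190 CPM against 0.0329, 0.0982 and 0.046 CPM, also without overlap, and missed the threshold (-2.05, SE 0.87, adjusted p 0.0708). Col27a1, a cartilage-type fibrillar chain, was lower in Smox tumors (9.21, 15.8 and 3.23 against 2.52, 3.002 and 3.72 CPM, adjusted p 0.0369), although the groups overlapped. The Smox calls depended on single libraries. The Col11a1 call was lost without Smox non-tumor 2, tumor 1 or tumor 2 (log2 -3.53 to -1.98 over the 6 libraries left out), and that of Col27a1 was kept only without non-tumor 3 or tumor 3 (log2 between -1.98 and -1.0).

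The type IV genes split by chain pair. Col4a1 and Col4a2 encode the chains of the common network found in every basement membrane. Col4a1 measured 51.7, 50.9 and 24.3 CPM in WT non-tumor colon and 80.3, 238 and 243 CPM in WT tumors, every tumor above every non-tumor library (log2 fold change 2.14, SE 0.71, adjusted p 0.0243). Col4a2 measured 36.9, 31.7 and 17.8 CPM against 41.0, 143 and 148 CPM, again without overlap but with tumor 1 near the non-tumor level (1.94, SE 0.72, adjusted p 0.0401). In Smox mice the non-tumor libraries already reached 199, 198 and 51.2 CPM for Col4a1, against 193, 209 and 156 CPM in tumors (0.32, SE 0.68, adjusted p 0.765). These WT calls were held by 2 of 6 fits with a library left out for Col4a1 (log2 1.87 to 2.50) and 1 of 6 for Col4a2 (1.68 to 2.34): the first was lost without non-tumor 2 or 3 or tumor 2 or 3, the second also without non-tumor 1.

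Col4a5 and Col4a6 encode the chains of a second network that is known around smooth muscle and in some epithelial basement membranes. Col4a6 fell most: it measured 2.56, 1.81 and 1.05 CPM in WT non-tumor colon and 0.0329, 0.115 and 0.230 CPM in WT tumors. Smox libraries had 1.02, 2.09 and 0.517 CPM in non-tumor colon and 0.103, 0.0154 and 0.167 CPM in tumors. Every tumor library was below every non-tumor library of either genotype. The log2 fold change was -3.82 (SE 0.76, adjusted p 0.00104) in WT and -3.65 (SE 0.77, adjusted p 0.00528) in Smox mice, by edgeR, and the call held with any library left out in both comparisons. Levels in tumors rest on 1 to 15 counts per library, and Smox tumor 2 on the single count.

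Col4a5 measured 4.97, 4.52 and 2.41 CPM against 0.312, 0.965 and 1.18 CPM in WT (log2 fold change -2.27, SE 0.62, adjusted p 0.00763). In Smox mice it measured 2.38, 6.62 and 1.23 CPM against 0.425, 1.12 and 0.651 CPM (-2.21, SE 0.62, adjusted p 0.0156). Tumors were lower without overlap in both, by a small margin in Smox mice, where the call was lost without non-tumor 2 or tumor 1 (log2 -2.66 to -1.29). Among the 10 groups both genes had their highest mean in WT untreated colon, at 5.93, 8.67 and 10.6 CPM for Col4a5 and 3.24, 4.70 and 4.64 CPM for Col4a6. Smooth muscle markers, which were also lower in both tumor groups (10 of 10 and 3 of 10 called), summed to 5777 to 8877 CPM there. In Smox tumor 3, with 1166 CPM of those markers, Col4a6 was at 0.167 CPM, on 10 counts. That was the highest of the 3 Smox tumors and within the range of the WT tumors. The part of smooth muscle in the Col4a5 and Col4a6 values was not tested. Col4a4 of the kidney-type network was at 0 to 1.31 CPM and was not called.

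Of the zone collagens, Col7a1, the anchoring fibril that ties the basement membrane to the stroma, rose in WT tumors. It measured 0.670, 1.67 and 0.730 CPM in non-tumor colon and 4.69, 11.8 and 7.55 CPM in tumors, with no overlap (log2 fold change 2.96, SE 0.90, adjusted p 0.0155). The call was lost without non-tumor 1 or 3 (log2 2.56 to 3.53 over the libraries left out). In Smox mice it measured 7.37, 2.25 and 1.08 CPM against 14.4, 9.62 and 6.04 CPM (1.49, SE 0.85, adjusted p 0.195), and the highest non-tumor library exceeded the lowest tumor. Col18a1, whose tail is released as endostatin, measured 25.1, 20.3 and 6.35 CPM against 34.4, 70.0 and 85.5 CPM in WT (1.87, adjusted p 0.0833) and did not separate the groups in Smox mice (0.16, adjusted p 0.904). Col15a1, its vascular relative, had log2 fold changes of 1.25 and -0.19.

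Type VI genes, which build beaded filaments beside the basement membrane, had 0 of 5 tested members called in either comparison. Over all genes 34.4% were called in WT tumors and 24.6% in Smox tumors. Col6a1 measured 47.1, 41.1 and 14.1 CPM in WT non-tumor colon and 15.7, 29.3 and 32.2 CPM in WT tumors (log2 fold change -0.41, adjusted p 0.64). The Smox values were 64.0, 124 and 21.2 CPM against 30.2, 29.4 and 26.5 CPM (-1.28, adjusted p 0.13). Tumors of both genotypes lay inside the non-tumor range. Col6a3 had log2 fold changes of 0.29 and -1.07, with overlap in both.

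The short chain collagen Col8a2, a partner chain of the type VIII network made by vascular and other mesenchymal cells, fell in both tumor groups. It measured 0.310, 0.188 and 0.571 CPM against 0.0329, 0.0491 and 0.0921 CPM in WT (log2 fold change -2.54, SE 0.91, adjusted p 0.0351) and 0.136, 1.503 and 0.388 CPM against 0.088, 0.0924 and 0.150 CPM in Smox mice (-2.60, SE 0.86, adjusted p 0.0332), with overlap only in Smox mice. With a library left out the WT call was kept only without non-tumor 2 (log2 -3.03 to -2.05), and the Smox call was lost without non-tumor 2, tumor 1 or tumor 2 (-3.05 to -1.23). Col8a1 was not called (adjusted p 0.15 and 0.202).

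The largest changes were in type IX collagen, a FACIT known from the surface of cartilage fibrils, whose 3 chains come from Col9a1 (chr1:24177610-24252684), Col9a2 (chr4:121039385-121055322) and Col9a3 (chr2:180597790-180622189, all on the plus strand of GRCm38). Col9a3 measured 0.147, 0.266 and 0.413 CPM in WT non-tumor colon and 41.1, 25.3 and 35.9 CPM in WT tumors. The Smox libraries had 1.002, 0.346 and 0.0862 CPM in non-tumor colon and 15.4, 49.98 and 4.46 CPM in tumors. Every tumor was above all of these non-tumor libraries. The log2 fold change was 6.99 (SE 1.60, adjusted p 0.00259) in WT and 5.58 (SE 1.48, adjusted p 0.0129) in Smox mice, by edgeR.

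Col9a2 measured 1.05, 1.60 and 0.603 CPM in WT non-tumor colon and 63.4, 12.3 and 21.6 CPM in WT tumors, without overlap (log2 fold change 4.89, SE 1.03, adjusted p 0.00146). The Smox values were 1.84, 6.498 and 1.51 CPM against 19.0, 22.3 and 2.24 CPM, with tumor 3 inside the non-tumor range (2.14, SE 0.91, adjusted p 0.0828). Without Smox tumor 3 Col9a2 was called there as well. Col9a1 was the scarcest chain, with 2 counts in all WT non-tumor libraries against 197 in WT tumors, a ratio of 82.5 (95% counting interval 22.5 to 686, covering counting error only). In CPM, WT tumors measured 1.43, 0.229 and 1.47 (adjusted p 0.00927), and Smox tumors 0.821, 2.86 and 0.0835 against 0.034, 0.0518 and 0 in non-tumor colon (log2 fold change 5.30, SE 1.55, adjusted p 0.0202). All 3 genes were called in WT with any library left out. In Smox mice Col9a3 kept its call in 3 of 6 (log2 4.36 to 6.73; lost without non-tumor 2 or 3 or tumor 2) and Col9a1 only without tumor 3 (3.84 to 5.94).

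Smox tumor 3, the lowest tumor for all 3 type IX genes, was also the tumor with 1166 CPM of smooth muscle markers against 70.6 to 176 CPM in the other 5, and its part in the Smox values was not tested. The library labelled Smox AOM-DSS spermidine non-tumor 1 had Col9a3 at 47.4, Col9a2 at 10.6 and Col9a1 at 0.526 CPM, where the other libraries of its group had 0.172 and 0.469, 2.32 and 1.30, and 0 and 0.0361 CPM. Its Smox level of 63.1 CPM lay above the 23.2 and 35.0 CPM of its group, and its smooth muscle markers, 528 CPM, below their 2493 and 2163 CPM. In the other 23 non-tumor libraries Col9a3 was at most 2.78 CPM. With this library, Smox against WT AOM-DSS spermidine non-tumor colon gave a Col9a3 log2 difference of 5.90 (SE 1.53, adjusted p 0.0859), and without both libraries that stood apart 0.29 (SE 1.02, adjusted p 0.94).

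Other FACITs were not called. Col12a1, which links fibrils in stressed tissue, measured 8.81, 10.3 and 4.70 CPM in WT non-tumor colon and 7.99, 50.5 and 31.1 CPM in tumors (log2 fold change 1.91, SE 0.79, adjusted p 0.0646). Col14a1 measured 2.55, 0.813 and 0.508 CPM against 3.78, 4.91 and 4.39 CPM, without overlap (1.74, SE 0.78, adjusted p 0.0851). A library decided both: without tumor 1 Col12a1 was called, and without non-tumor 1 Col14a1 was (lowest adjusted p 0.0393 and 0.0302).

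**Figure D4:**
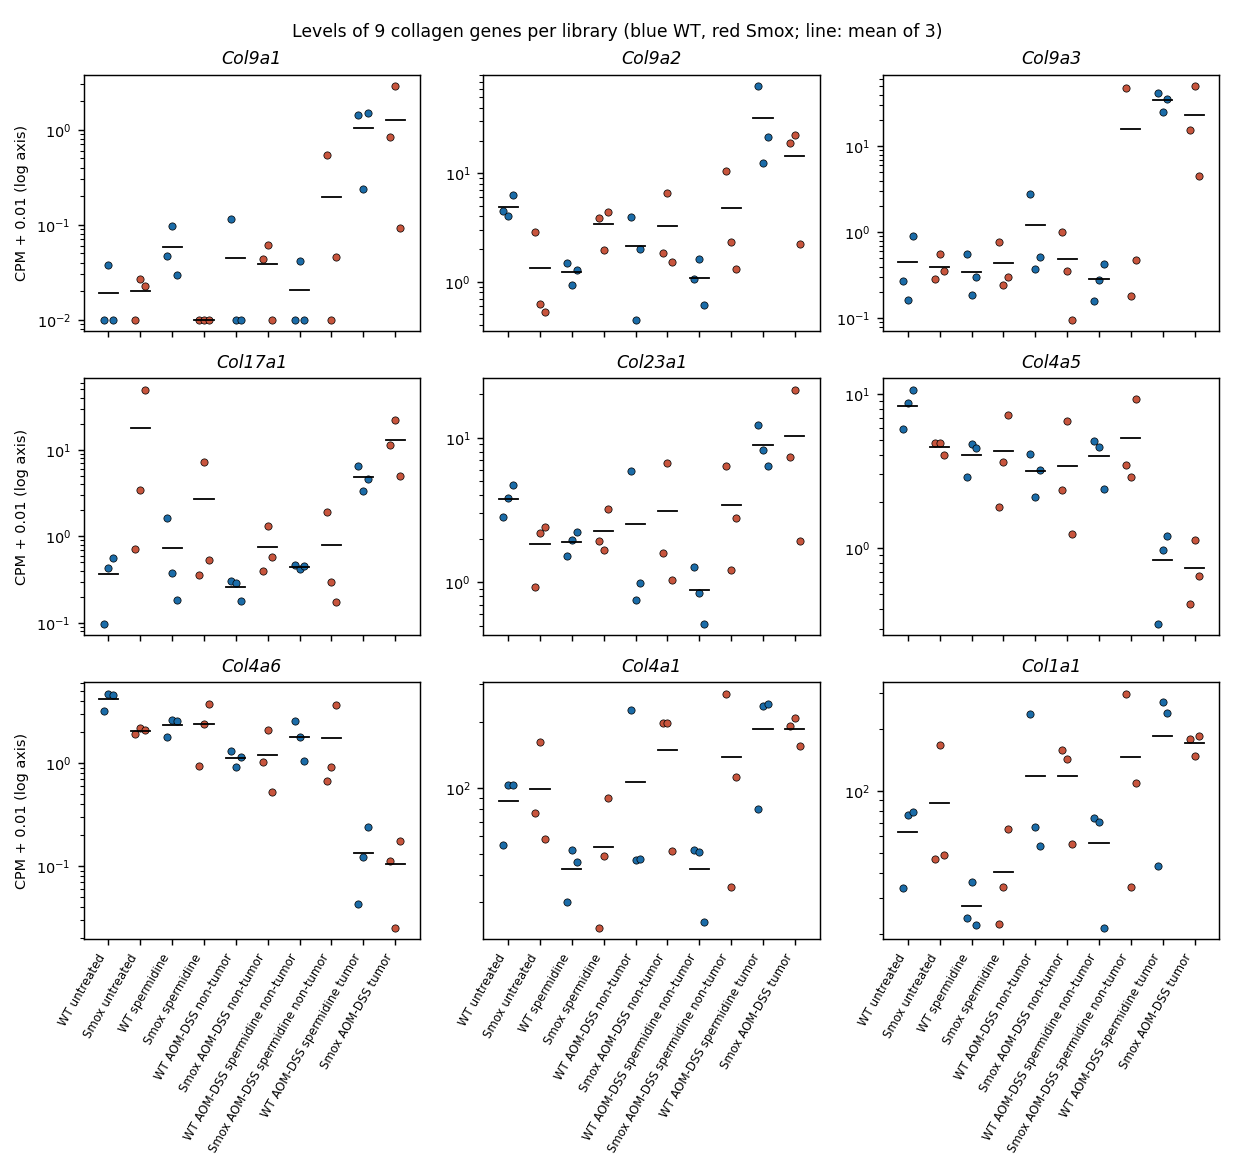
TMM-scaled CPM plus 0.01 of 9 collagen genes on a log axis, 3 libraries per group as points (blue WT, red Smox) with a line at the group mean. Group means of Col9a1, Col9a2, Col9a3 and Col23a1 are highest in tumors and those of Col4a5 and Col4a6 lowest, and the raised type IX point in Smox AOM-DSS spermidine non-tumor colon is library 1.

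Among the transmembrane collagens, Col17a1 (chr19:47646344-47692094, minus strand), the hemidesmosome collagen of basal keratinocytes, rose in both tumor groups. It measured 0.457, 0.407 and 0.444 CPM against 6.49, 3.32 and 4.57 CPM in WT (log2 fold change 3.45, SE 1.30, adjusted p 0.0431) and 0.391, 1.30 and 0.560 CPM against 11.4, 22.1 and 5.03 CPM in Smox mice (4.09, SE 1.32, adjusted p 0.029). Groups did not overlap in either. The WT call was lost with any of the 6 libraries left out (log2 3.17 to 3.65, adjusted p 0.0504 to 0.115), and in Smox mice it was kept only without tumor 3 (3.45 to 4.75 over the 6). Markers of squamous epithelium, which makes this gene, were higher in the same tumors (58.7 to 114 CPM in WT and 59.9 to 662 CPM in Smox). The highest level of all was 49.0 CPM in Smox untreated 3, the library with 2767 CPM of these markers. Their part in the tumor values was not tested.

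Col23a1 (chr11:51289920-51583918, plus strand), a shed transmembrane collagen, measured 1.27, 0.829 and 0.508 CPM in WT non-tumor colon and 12.2, 8.23 and 6.32 CPM in WT tumors, without overlap (log2 fold change 3.34, SE 0.87, adjusted p 0.00598), and was called with any library left out. In Smox mice it measured 1.60, 6.71 and 1.03 CPM against 7.36, 21.3 and 1.94 CPM, with overlap (1.71, SE 0.81, adjusted p 0.118), and it was called there without non-tumor 2 or without tumor 3. Col13a1, known from the neuromuscular junction, had log2 fold changes of 1.64 and -0.72 and Col25a1, a neuronal membrane collagen, of 1.53 and -1.84, none of them called. Col28a1, a peripheral nerve collagen, fell in WT tumors (1.70, 2.85 and 1.56 against 0.263, 0.818 and 0.675 CPM, log2 fold change -1.80, SE 0.59, adjusted p 0.023). That call was kept in 3 of 6 fits with a library left out (log2 -2.12 to -1.45; lost without non-tumor 2 or tumor 1 or 3). Of the neuron and glia markers 7 of 10 were called lower and 1 higher in WT tumors. Their summed level was 16.8 to 35.3 CPM in non-tumor colon and 23.0 to 38.0 CPM in tumors, and their part was not tested.

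A gene called in WT and not in Smox tumors is not thereby different between them. The difference of the tumor responses, a contrast added after the data were seen, was called for 0 of 39 collagen genes (0.0102% of all genes). The estimate was below 0, a smaller rise or larger fall in Smox tumors, for 32 of 39, with a median of -1.12 against -0.01 over all genes. Unadjusted p was under 0.05 for 5 of them (Col6a5, Col9a2, Col13a1, Col25a1 and Col27a1) and for 11.7% of all genes, and DESeq2 also called 0. For Col9a2 the Smox response minus the WT response was -2.75 on the log2 scale (SE 1.26, adjusted p 0.411), for Col4a1 -1.83 (SE 0.98, adjusted p 0.47) and for Col27a1 -1.88 (SE 0.77, adjusted p 0.358). Smox tumors set directly against WT spermidine tumors gave 0 of 39 calls (0.0614% of all genes; 0 at an unadjusted p under 0.05 and 0 by DESeq2). Col3a1 measured 193, 196 and 244 CPM in Smox tumors against 75.3, 286 and 273 CPM in WT tumors, with overlap, and Col9a2 differed by -1.16 on the log2 scale (SE 0.88).

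In untreated colon, 3 of 39 collagen genes differed between Smox and WT (7.69% against 5.95% of all genes, 2.63% higher and 3.32% lower). Col17a1 rose: Smox libraries measured 0.714, 3.40 and 49.0 CPM and WT libraries 0.0879, 0.416 and 0.558 CPM (log2 fold change 5.65, SE 1.42, adjusted p 0.0272). The Smox values followed the squamous markers, at 6.32, 109 and 2767 CPM, of which 3 of 10 were called higher. Col11a1 fell, from 4.39, 4.62 and 16.7 CPM in WT to 0.991, 0.392 and 0.386 CPM in Smox (-3.86, SE 0.82, adjusted p 0.0204), and Col28a1 fell from 2.06, 3.52 and 9.31 to 1.31, 1.48 and 0.940 CPM (-2.00, SE 0.59, adjusted p 0.0469). WT untreated 3 was the highest for both. Without both libraries that stood apart there were 0 calls, with log2 values of 6.14 for Col17a1 (adjusted p 0.0877), -2.91 for Col11a1 (0.0698) and -1.14 for Col28a1 (0.245). Counts were also 0 without WT untreated 3 alone, Smox untreated 2 or Smox untreated 3, and Col17a1 kept its call only without Smox untreated 1. In the same comparison smooth muscle markers measured 5777 to 8877 CPM in WT and 1357 to 3924 CPM in Smox (0 of 10 called), and neuron and glia markers were lower for 7 of 10 genes (104 to 382 against 27.4 to 49.97 CPM). Macrophage markers were higher for 3 of 10 genes (63.8 to 121 against 185 to 324 CPM), and the mitochondrial share of counts was 6.95 to 21.7% in WT and 3.12 to 4.12% in Smox. Their part was not tested. In the 3 other settings shared by both genotypes without tumors the genotype comparison called 0 of 39 (0.0818% of all genes with spermidine alone, 0.0665% in AOM-DSS and 0.251% in AOM-DSS with spermidine non-tumor colon). Unadjusted p was under 0.05 for 1, 4 and 13 collagen genes (9.62, 8.39 and 14.2% of all genes), and DESeq2 called 0, 0 and 1 (Col9a3). Estimates were above 0 for 34, 31 and 36 of 39, with medians of 0.51, 0.33 and 1.13 against 0.07, 0.03 and 0.05 over all genes. In the last of these, without both libraries that stood apart, 36 of 39 were above 0 and the median was 0.58. There 4 rather than 13 had p under 0.05, and Col9a3 was at 0.29.

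AOM-DSS alone was followed by lower Col11a1, Col8a2 and Col25a1 in WT non-tumor colon (7.69% against 6.44% of all genes, 1.76% higher and 4.68% lower). Col11a1 went from the untreated values above to 0.471, 0.279 and 0.376 CPM (log2 fold change -4.50, SE 0.84, adjusted p 0.0122 by edgeR). Col8a2 fell from 1.89, 2.25 and 3.19 to 0.122, 0.0872 and 0.113 CPM (-4.48, SE 0.92, adjusted p 0.0152), and Col25a1 from 3.35, 2.18 and 12.4 to 0.471, 0.384 and 0.470 CPM (-3.75, SE 0.95, adjusted p 0.0281). None of the groups overlapped. Without both libraries that stood apart Col11a1 was still called (-3.53, SE 0.65, adjusted p 0.0238), while Col8a2 (-4.19, adjusted p 0.0597) and Col25a1 (-2.59, adjusted p 0.155) were not. With WT untreated 3 or WT non-tumor 2 alone left out, 0 were called, and Col25a1 was called only without WT untreated 1 or 2. Skeletal muscle markers were lower for 7 of 10 genes in the same comparison (30.7 to 9899 against 4.29 to 15.7 CPM), smooth muscle for 2 of 10 and neuron and glia for 5 of 10. Their part was not tested.

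With spermidine, AOM-DSS in WT gave 1 call, Col25a1, which fell from 0.601, 0.914 and 1.98 to 0, 0.141 and 0.0635 CPM (log2 fold change -4.04, SE 1.03, adjusted p 0.0425; 2.56% against 1.91% of all genes, 1.48% lower). The call was kept only without WT spermidine 1 (-5.51 to -3.44 over the 6 libraries left out). In Smox mice AOM-DSS called 0 of 39 without spermidine (0.0767% of all genes) and 0 with it (0.0205%). Before adjustment 2 and 6 collagen genes had p under 0.05 (13 and 16.3% of all genes), and DESeq2 called 1 (Col17a1) and 1 (Col9a3). With spermidine and without both libraries that stood apart, 4 had p under 0.05 and the edgeR log2 fold change of Col9a3 was -0.40 in place of 5.21. Col11a1 in Smox mice measured 0.991, 0.392 and 0.386 CPM untreated and 0.493, 2.04 and 0.345 CPM after AOM-DSS. The genotype difference in the AOM-DSS response was called for 0 genes of any kind by edgeR (0%). It was 5.21 for Col11a1 on the log2 scale (SE 1.10, adjusted p 0.0523), and 4.23 (SE 0.86, adjusted p 0.188) without both libraries that stood apart. Unadjusted p was under 0.05 for 9 collagen genes (15.8% of all genes; 7 collagen genes without both libraries), and DESeq2 called 3 (Col11a1, Col25a1 and Col8a2). The comparisons of this paragraph and the preceding 2 share control libraries.

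Spermidine alone in WT colon gave lower estimates for nearly all collagens and no call. Of 39 genes 37 had a log2 fold change below 0, with a median of -1.04 against -0.04 over all genes, and 20 of them were lower in every spermidine library than in every untreated one (14.2% of all genes). By edgeR 0 were called (0.00511% of all genes). Before adjustment 9 had p under 0.05 (16.1% of all genes), and 3 passed in DESeq2 (Col11a1, Col12a1 and Col28a1). Col3a1 measured 86.7, 202 and 167 CPM untreated and 70.8, 101 and 58.999 CPM with spermidine, and Col1a1 33.6, 76.5 and 78.9 against 24.0, 35.8 and 22.2 CPM, with overlap in both at the lowest untreated library. Col12a1 measured 32.5, 39.3 and 131 against 12.7, 12.2 and 15.3 CPM (log2 -2.33, SE 0.80, adjusted p 0.165), the highest being WT untreated 3. Without both libraries that stood apart Col12a1 was at -1.36 (SE 0.73, adjusted p 0.367), 31 of 39 were below 0, the median was -0.83, 2 had an unadjusted p under 0.05 and 0 were called. In the same comparison 0 markers of any list were called, but most lists shifted. Fibroblast markers were below 0 for 14 of 14 (median log2 -0.91; 467 to 646 CPM untreated and 358 to 434 CPM with spermidine), smooth muscle for 10 of 10 (5777 to 8877 against 2312 to 4355 CPM) and endothelium for 10 of 10 (49.0 to 85.5 against 28.6 to 48.95 CPM). Neuron and glia markers were below 0 for 9 of 10 (104 to 382 against 34.2 to 62.6 CPM), and epithelial markers above 0 for 10 of 10 (15212 to 16654 against 21942 to 24624 CPM). Their part was not tested.

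Spermidine gave 0 calls of 39 in each of the other settings, Smox colon, WT AOM-DSS and Smox AOM-DSS non-tumor colon (0% of all genes in each). Estimates were below 0 for 25, 31 and 17 of 39, with medians of -0.53, -0.80 and 0.05 against 0.01, -0.03 and 0.002 over all genes. In the last setting, without both libraries that stood apart, 29 of 39 were below 0, with a median of -0.63. The numbers at an unadjusted p under 0.05 were 3 (Col11a1, Col17a1 and Col25a1), 4 (Col7a1, Col13a1, Col20a1 and Col25a1) and 1 (Col9a3), against 9.33, 5.67 and 13.7% of all genes, and DESeq2 called 0, 0 and 1 (Col9a3, which rests on the non-tumor library 1 described above and was at a log2 fold change of -0.57, adjusted p 0.839 by edgeR, without both libraries that stood apart). The genotype difference in the spermidine response was called for Col11a1 (2.56% against 2.91% of all genes, 2.18% higher): WT libraries with spermidine had 1.002, 1.41 and 1.81 CPM, all below the untreated WT libraries, and Smox libraries with spermidine 3.14, 1.40 and 3.71 CPM, all above the untreated Smox libraries. The log2 fold change was -2.61 in WT (adjusted p 0.13) and 2.23 in Smox mice (adjusted p 0.498). The difference was 4.83 on the log2 scale (SE 1.08, adjusted p 0.0312), and without both libraries that stood apart 3.85 (SE 0.85, adjusted p 0.0526).

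Genes that act on collagen were taken from lists of 26 maturation and crosslinking genes, 17 degrading enzymes and their inhibitors and 11 receptors, all tested. In WT tumors 4 of 26 maturation genes rose and 0 fell, where 16.9% of all genes were called higher and 17.5% lower. Bmp1, which trims procollagen ends, rose from 3.77 ± 1.75 to 35.1 ± 5.87 CPM (SD, n = 3 each; log2 fold change 3.21, SE 0.72, adjusted p 0.00227). Lox rose from 1.10 to 8.20 CPM, P4ha2, a prolyl hydroxylase, from 3.78 to 10.03 CPM and Colgalt1, a hydroxylysine galactosyltransferase, from 75.3 to 118 CPM. In Smox tumors, where 11.4% of all genes were higher and 13.2% lower, 0 rose and Plod1, a lysyl hydroxylase, fell from 17.6 to 9.54 CPM (adjusted p 0.0151). The median log2 fold change of the list was 0.45 in WT and -0.26 in Smox tumors.

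Of the degrading enzymes and inhibitors 9 of 17 rose and 2 fell in WT tumors (16.9 and 17.5% of all genes), with a list median of 1.66 against 0.01 over all genes. Mmp7, matrilysin, rose from 0.783 ± 0.501 to 405 ± 101 CPM (log2 fold change 8.95, SE 2.12, adjusted p 0.00318) and in Smox mice from 5.70 ± 3.53 to 412 ± 233 CPM (6.17, SE 1.85, adjusted p 0.0214; SD, n = 3 each). Mmp14, the membrane collagenase, rose in both, from 81.9 to 343 CPM and from 115 to 281 CPM. Fap, a fibroblast protease, and Mmp16 fell in both. The others that rose in WT were Mmp8, Mmp9, Mmp10, Mmp13, Timp1, Timp2 and Timp3. In Smox tumors 2 rose and 2 fell (11.4 and 13.2% of all genes), with a median of 0.12.

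Of the receptors, Ddr1, the collagen receptor kinase of epithelium, rose from 194 to 294 CPM in WT and from 182 to 248 CPM in Smox tumors, while Ddr2, its mesenchymal relative, fell from 10.9 to 3.11 and from 23.4 to 5.63 CPM. Cd44 rose in both, from 26.8 to 100.4 and from 37.8 to 118 CPM, and Itgb1 rose in WT. Gp6, the platelet receptor, was called lower in Smox tumors, where it was at 0 counts, against a mean of 0.192 CPM. Altogether 3 of 11 receptors rose and 1 fell in WT (16.9 and 17.5% of all genes), and 2 rose and 2 fell in Smox tumors (11.4 and 13.2%).

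Chains that pair in a trimer or share a promoter region were compared as ratios of counts. Col4a1 and Col4a2 lie head to head on chromosome 8 with start sites 21 bp apart (Col4a1 at 11198423 to 11312826 and Col4a2 at 11312805 to 11449287, GRCm38). Their ratio stayed between 1.21 and 1.96 in all 30 libraries, with an SD of 0.16 on the log2 scale against 1.08 and 1.05 for the single genes. Col4a5 and Col4a6 are head to head on the X chromosome with starts 1309 bp apart (Col4a6 at 141165403 to 141474076, Col4a5 at 141475385 to 141689234). Their ratio was 1.48 to 5.26 in the non-tumor libraries and 3.90 to 73.0 in tumors, the highest of them on 1 count of Col4a6. Tumors had a larger ratio than their non-tumor group in WT and Smox mice, by 1.74 and 2.02 on the log2 scale, with no overlap. An exact permutation test, two-sided, gave p = 0.1 for each, the smallest that 3 against 3 allows, so no call was possible.

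**Figure D5:**
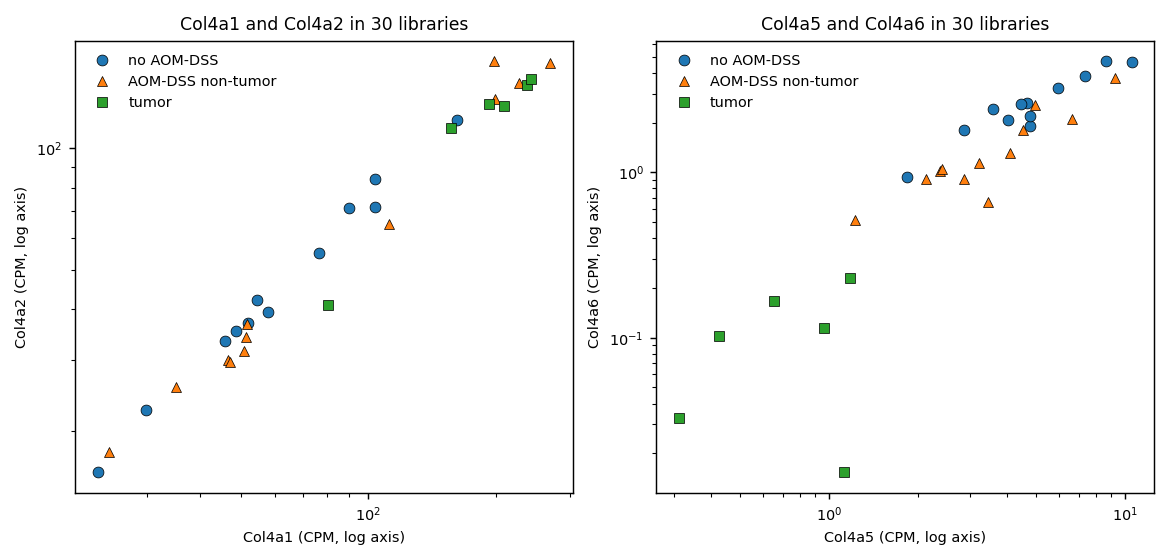
CPM of Col4a2 against Col4a1 (left) and of Col4a6 against Col4a5 (right), 1 point per library on log axes, by AOM-DSS and tumor status. The left points follow a single line over all 30 libraries, and on the right the 6 tumors lie below the other libraries, at 0.0154 to 0.230 CPM of Col4a6.

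Type I collagen is made of chains from Col1a1 and Col1a2. The count ratio of Col1a1 to Col1a2 was 0.560 to 1.27 in non-tumor libraries and 1.17 to 1.60 in tumors. It was larger in tumors than in their non-tumor groups by 0.86 on the log2 scale in WT (0.732 to 0.854 against 1.17 to 1.60) and by 0.55 in Smox mice (0.831 to 1.04 against 1.30 to 1.40), without overlap, with an exact permutation p of 0.1 in each, two-sided, again the smallest possible. The ratio in the library labelled Smox AOM-DSS spermidine non-tumor 1 was 1.27. For Col9a3 over Col9a2 the tumor shift was 2.37 in WT (exact p 0.2) and 3.70 in Smox mice (exact p 0.1). In all, 5 pairs were compared in each of the tumor contrasts, and none can pass 0.05 in this design. The others, Col4a1 over Col4a2 and Col6a1 over Col6a2, shifted by 0.26 and -0.19 in WT (exact p 0.1 for each). In Smox mice they shifted by 0.11 and -0.21 (exact p 0.5 and 0.3). The WT ratios did not overlap for Col4a1 over Col4a2 (1.37 to 1.61 in non-tumor colon, 1.63 to 1.96 in tumors) or Col6a1 over Col6a2 (0.932 to 1.06 and 0.853 to 0.922).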

How the data were processed

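Bulk RNA of 30 colon libraries (10 groups of 3) was analysed from the deposited table of estimated counts per gene, which the authors made with fastp and Salmon on GRCm38, per the submitters' processing notes; versions, settings and the annotation release are not given in the sources used here. DESeq2 is named there too. Rounding to whole numbers was applied to the values before use. Library totals of 33060607 to 81011304 counts set the precision, and counting intervals cover counting error only. The file named 20430 of 31023 genes; 10546 more were named, and positions and exon lengths taken, from GENCODE vM21 by gene ID.

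The main test was edgeR 4.0.16 (R 4.3.3): filterByExpr with a minimum count of 10 and total of 15 (19558 genes kept), TMM scaling, a robust quasi-likelihood fit of all 30 libraries with 1 mean per group (20 residual degrees of freedom), and Benjamini-Hochberg adjustment over all genes at 0.05. Levels are TMM-scaled CPM. Genotypes were compared within a treatment, treatments within a genotype, and tumors with non-tumor colon of the same genotype and treatment. Smox tumors were also set against WT spermidine tumors. The steps were tested on simulated data. The alternatives were DESeq2 1.42.0, RLE scaling, no count filter, 1 CPM in 3 libraries, the compared groups alone, each library left out, and, chosen after seeing the data, leaving out both libraries that stood apart. The collagen genes, the gene and marker lists and the motifs were chosen with earlier results of these data known. Values are given for up to 8 called collagens per comparison, those with the highest mean CPM, for a set of 15 abundant or well known chains (Col1a1, Col1a2, Col3a1, Col5a1, Col5a2, Col4a1, Col4a2, Col6a1, Col6a3, Col7a1, Col12a1, Col14a1, Col15a1, Col17a1 and Col18a1), for up to 4 called genes of the maturation list, and for the 5 genes most like Col1a1. Other genes, among them Col4a6, Col8a2, Col9a1 and Col28a1 in WT tumors, were named after their values were seen. Promoter sequences are from RefSeq (GRCm38.p6).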

Additional observations from a re-analysis of the deposited data

Results flagged for a closer look

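The effect of spermidine on Col11a1, the type XI fibril chain, differed between genotypes. The test of the difference, Smox minus WT, gave 4.83 on the log2 scale (SE 1.08, adjusted p 0.0312 by edgeR), with Col11a1 lower in 3 of 3 WT spermidine libraries than in every untreated WT library and higher in 3 of 3 Smox spermidine libraries than in every untreated Smox library. With each of the 12 libraries left out the difference ran from 3.85 to 5.43 and was called in 5. It was not called without WT untreated 3, Smox untreated 2 or 3, WT spermidine 1 or 2, or Smox spermidine 1 or 3. WT untreated 3, at 16.7 CPM, had 9899 CPM of skeletal muscle markers and the highest neuron and glia markers. Skeletal muscle markers were also at 1673 CPM in Smox spermidine 1, 365 CPM in WT spermidine 1 and 311 CPM in Smox untreated 3. Without both libraries that stood apart the difference was 3.85 (adjusted p 0.0526). Neuron and glia markers also ran from 104 to 382 CPM in untreated WT, 34.2 to 62.6 CPM in WT with spermidine, 27.4 to 49.97 CPM in untreated Smox and 53.0 to 133 CPM in Smox with spermidine. Their part in the Col11a1 values was not tested.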

How the results depend on the processing

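No paired analysis was possible because the labels give no replicate numbers, animals or batches that link libraries of different groups. The main numbers of collagen genes called that moved under an alternative follow. The share of all genes called under each alternative is not given, so these numbers cannot be set against other genes. DESeq2 called 18 in WT tumors and 9 in Smox tumors (12 and 8 by edgeR), 6 for AOM-DSS in WT (3), 2 for AOM-DSS in WT with spermidine (1), 1 for AOM-DSS in Smox without and 1 with spermidine (0 each), 3 for spermidine in WT (0), 1 for spermidine in Smox AOM-DSS colon (0), 1 for Smox against WT in AOM-DSS with spermidine (0), 3 for the genotype difference in the AOM-DSS response (0) and 3 for that in the spermidine response (1). Untreated Smox against WT gave 4 by DESeq2, with RLE scaling or with the 1 CPM filter, and 2 with no filter (3). No filter gave 9 in WT and 6 in Smox tumors. Fitting only the groups compared gave 17 in WT tumors, 3 in Smox tumors, 0 for untreated Smox against WT, 0 for AOM-DSS in WT, 2 for AOM-DSS in WT with spermidine and 2 for the genotype difference in the spermidine response. The 1 CPM filter gave 1 for the genotype difference in the AOM-DSS response. Without both libraries that stood apart the counts were 0 for untreated Smox against WT, 1 for AOM-DSS in WT and 0 for the genotype difference in the spermidine response. With each library left out the counts ran from 7 to 11 in WT tumors, 2 to 11 in Smox tumors, 0 to 3 for untreated Smox against WT, 0 to 3 for AOM-DSS in WT, 0 to 1 for AOM-DSS in WT or in Smox with spermidine, 0 to 1 for Smox against WT in AOM-DSS with spermidine, and 0 to 2 for each genotype difference. Fits with fewer libraries also have fewer residual degrees of freedom, and the cause of any of these shifts was not tested. By library total without TMM the Smox tumor collagen sum was 1405 CPM in place of 1235 CPM.

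Single gene values were also compared under DESeq2, RLE scaling, no filter, the 1 CPM filter and the compared groups alone. Of these, 239 kept their direction and their side of the threshold, 15 lost and 7 gained a call and 2 changed sign: Col1a2 in Smox tumors was -0.0086 by DESeq2 and -0.0087 with RLE scaling against 0.01. Fits with libraries left out are not part of these numbers. Calls were also lost there, that of Col17a1 in WT tumors in 6 of 6 fits with 1 library left out. With a library left out, log2 fold changes crossed 0 in Smox tumors for Col15a1 (-0.64 to 0.77), Col18a1 (-0.21 to 0.98), Col1a2 (-0.27 to 0.25), Col3a1 (-0.44 to 0.20), Col4a1 (-0.064 to 0.61), Col4a2 (-0.24 to 0.57), Col5a1 (-0.74 to 0.15) and Col5a2 (-0.44 to 0.20), and in WT tumors for Col6a3 (-0.091 to 0.71), none of them called. Low counts limit Col9a1, Col2a1 and tumor Col4a6.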
